A study of Mus musculus with 12 samples.

Results

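The 10 genes described here belong to the non-collagen extracellular matrix and were followed across the livers of 12 mice. They were the glycoproteins *Fn1* and *Sparc*, the small leucine-rich proteoglycans *Lum*, *Dcn* and *Bgn*, the elastic fibre proteins *Fbn1* and *Eln*, and the crosslinking enzymes *Lox*, *Loxl1* and *Loxl2*. The members were taken by symbol from the deposited expression table, which held 25676 genes, and all 10 were found. The mice were C57BL/6 animals aged 3 to 4 months. The KO mice lacked *Yap1*, a co-activator of transcription that partners TEAD proteins, through Cre recombinase under the *Foxa3* promoter, and the WT mice were wild type. There were 4 groups of 3 animals: WT males, WT females, KO males and KO females. *Foxa3* is a gene of the foregut endoderm, from which hepatocytes and bile duct cells arise. The mesenchymal cells known for making matrix do not arise from it. Whole liver was sequenced, so a larger number of cells of a type and more RNA per cell cannot be told apart in any value below.

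Fibronectin and SPARC belong to the matrix that is laid down around cells and remodelled during repair. Hepatocytes secrete the plasma form of fibronectin into the blood. Lumican, decorin and biglycan are small proteoglycans that bind collagen fibrils and growth factors. Fibrillin microfibrils form the scaffold on which elastin is deposited, and the lysyl oxidases oxidise lysines in collagen and elastin so that the fibres become crosslinked. Apart from fibronectin, these proteins are known in liver mainly as products of hepatic stellate cells, portal fibroblasts and the myofibroblasts that come from them.

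The libraries held an estimated 20099156 to 28582011 reads, from the steps in the values, and 14321 to 15482 genes above 0. Levels are given in TPM, a share of all transcripts that is corrected for gene length and sums to 1000000 in each library. *Yap1* was at 23.0 to 34.9 TPM in the WT libraries and at 0.994 to 3.11 TPM in the KO libraries, without overlap. *Alb*, the hepatocyte gene for albumin, was at 42088 to 83194 TPM in every library. WT female 3 and KO female 1 had animal numbers well below those of the other mice, and the library number of WT male 2 stood apart from the rest. The labels do not say what these numbers mean. Differences between groups were tested with limma on log2(TPM + 1) over the 12278 genes whose mean reached 0.5 TPM. That scale understates changes of genes near or below 1 TPM. All 10 members passed that filter on the mean over all 12 libraries. *Lox* and *Fbn1* passed it only through the KO libraries, since their WT means were 0.317 and 0.441 TPM, so they could be tested only because they were high in KO. The median genotype log2 difference over all tested genes was 0.35 as deposited and -0.04 after each library was rescaled by its median ratio to a common reference. Both scalings are therefore given for the members.

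In the genotype comparison, 9 of the 10 members rose in KO liver and none fell. *Fn1* did not pass the threshold of an adjusted p of 0.05. Without a filter on low values the *Lox* and *Fbn1* differences passed as well. Over all tested genes 50.1% rose, so a rise alone was common in this table. The median log2 difference was 1.18 over the members and 0.35 over all tested genes. After rescaling, 8 members rose against 20.9% of all genes, and *Dcn* was the call that was lost. The 6 KO values lay above all 6 WT values for 5 members, *Sparc*, *Lum*, *Fbn1*, *Loxl1* and *Loxl2*, and this was so for 28.7% of all tested genes. After rescaling the *Fbn1* values overlapped and the other 4 members stayed apart. That share of all genes is for the deposited scale, so the count after rescaling has no share to stand against.

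**Figure D1:**
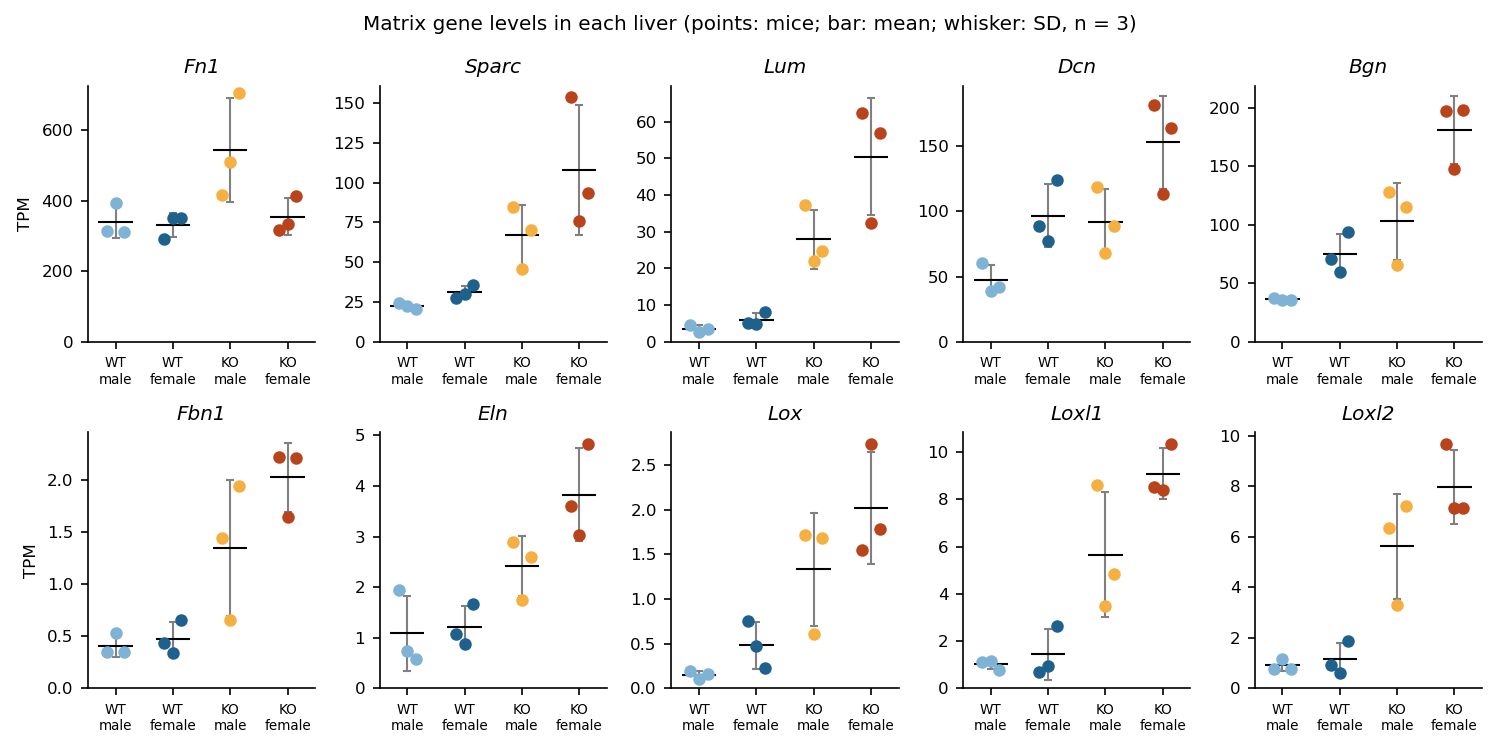
TPM (y axis, linear, from 0) of each of the 10 genes in WT males, WT females, KO males and KO females (x axis). Each point is 1 mouse, the bar is the mean and the whisker the SD of 3 mice. *Lum* is at most 8.01 TPM in the WT livers and at least 22.0 TPM in the KO livers, while the *Fn1* values of the genotypes overlap.

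*Lum* had the largest rise of the members in the comparison over both sexes. In males alone the fold of the mean TPM was larger for *Lox* (8.82) than for *Lum* (7.87). It encodes lumican, a keratan sulphate proteoglycan that regulates the assembly of collagen fibrils. It lies on chromosome 10 (97565128 to 97572703, plus strand, GRCm38). Its level was 4.51, 2.63 and 3.53 TPM in the WT males and 5.07, 4.82 and 8.01 TPM in the WT females. It was 37.1, 22.0 and 24.8 TPM in the KO males and 62.3, 32.2 and 56.8 TPM in the KO females. The lowest KO library was thus well above the highest WT library, and within KO the male libraries 2 and 3 were the lowest. The mean went from 4.76 ± 1.83 to 39.2 ± 16.8 TPM (SD, n = 6 each), an 8.24-fold difference. On the log2 scale the difference was 2.76 (SE 0.19, limma adjusted p = 1.26e-07) and, after rescaling, 2.34.

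*Dcn* encodes decorin, which binds fibrillar collagen and sequesters TGF-beta. It is the next gene to *Lum* on the same strand (chromosome 10, 97479609 to 97518143), with 46984 bases between them in the annotation. *Dcn* was at 60.3, 38.8 and 42.3 TPM in WT males, 88.6, 77.4 and 124 TPM in WT females, 118, 67.8 and 89.0 TPM in KO males, and 181, 113 and 164 TPM in KO females. The KO males and WT females covered much the same range, and the genotypes overlapped. Its log2 difference was 0.80 (SE 0.18, limma adjusted p = 0.0022). After rescaling it was 0.34 (adjusted p = 0.151). Rescaled instead without the 20 most abundant genes it was 0.72 and passed, so the call of *Dcn* depended on which scaling was used.

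*Bgn* encodes biglycan, a proteoglycan that also acts as a danger signal through Toll-like receptors when released from the matrix. It lies on chromosome X (73483602 to 73495933, plus strand). Its values were tight in the WT males, at 37.1, 35.4 and 35.9 TPM, and higher in the WT females, at 70.3, 60.0 and 94.1 TPM. In KO they were 128, 65.4 and 115 TPM in males and 197, 147 and 198 TPM in females. Each KO library was above each WT library of its own sex, but KO male 2 lay within the range of the WT females. The difference was 1.35 (SE 0.16, limma adjusted p = 1.70e-05) and 0.89 after rescaling (adjusted p = 0.000895).

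The stretch before the *Bgn* start site is shown because *Bgn* was the member, among those searched, whose RefSeq promoter entry could be printed. The 250 bases upstream of the start (chrX:73483351-73483600, GRCm38.p6, plus strand, from RefSeq) read as follows, with capitals at matches to the GC box.

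Bgn promoter: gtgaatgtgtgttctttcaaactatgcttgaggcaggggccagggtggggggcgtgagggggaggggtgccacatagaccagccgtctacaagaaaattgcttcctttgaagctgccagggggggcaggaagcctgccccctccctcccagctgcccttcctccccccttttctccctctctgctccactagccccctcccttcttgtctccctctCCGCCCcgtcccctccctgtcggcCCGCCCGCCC

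The GC box (GGGCGG, read on both strands) matched at 3 places, all on the minus strand and within 34 bases of the start, of which 2 overlap. It is found in 32.7% of the 32851 promoter windows of this length. No letters matched the TEAD motif GGAATG (12.6% of windows), the AP-1 motif TGANTCA (6.75%), TATAAA (12.4%), CCAAT (33.8%) or the SMAD pair GTCTAGAC (0.167%). The G and C content was 64.4%, against a median of 52.4% over all windows. These matches describe the letters and are not binding sites.

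The 3 proteoglycans did not change in proportion. A plain TPM ratio between genes of the same library does not depend on how libraries are scaled to each other. For 5 ratios within classes, the difference of log2(TPM + 1) between the genes was tested by exact permutation of genotype within sex. The pseudocount makes this measure depend on the scaling for low genes. The TPM of *Lum* relative to *Dcn* was 0.0572 to 0.0835 in the 6 WT libraries and 0.279 to 0.347 in the 6 KO libraries. The log2 ratio differed by 1.96 (two-sided exact permutation p = 0.005, adjusted over 5 ratios 0.0125), where 0.005 is the smallest p this design allows. The TPM of *Bgn* relative to *Dcn* was 0.614 to 0.913 in WT and 0.964 to 1.30 in KO, and the log2 ratio differed by 0.55 (exact permutation p = 0.005, adjusted 0.0125). After rescaling the log2 ratios differed by 2.01 and 0.55. Neither ratio overlapped between genotypes, also where the levels themselves overlapped.

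**Figure D2:**
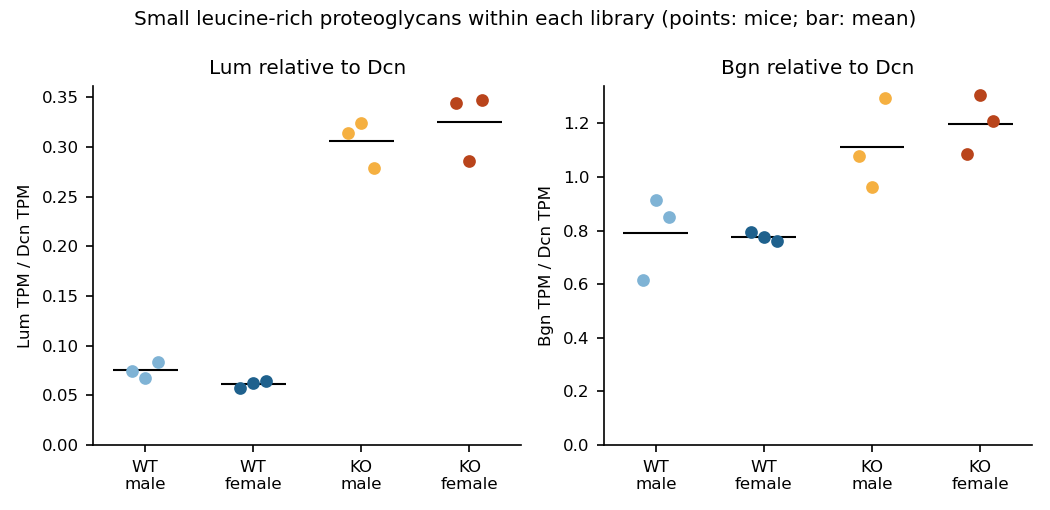
TPM of *Lum* (left) and of *Bgn* (right) divided by the TPM of *Dcn* in the same library (y axes, linear, from 0), by group (x axis). Points are mice and bars are means of 3. The *Lum* to *Dcn* ratio is at most 0.0835 in WT and at least 0.279 in KO.

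*Sparc* encodes a collagen-binding matricellular protein that shapes how collagen is processed and laid down. It lies on chromosome 11 (55394500 to 55423183, minus strand). It was at 24.5, 22.3 and 20.8 TPM in WT males and 27.7, 30.1 and 35.7 TPM in WT females. In KO it was at 84.3, 46.0 and 70.0 TPM in males and 154, 75.9 and 93.7 TPM in females. All KO livers were above all WT livers, and KO female 1 stood highest. The mean was 3.25 times higher in KO, with a log2 difference of 1.59 (SE 0.18, limma adjusted p = 7.84e-06) and of 1.14 after rescaling.

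*Fn1*, the gene for fibronectin, was the most abundant member and lies on chromosome 1 (71585520 to 71653200, minus strand). It was at 313, 392 and 312 TPM in WT males, 292, 352 and 350 TPM in WT females, 415, 509 and 704 TPM in KO males and 316, 335 and 414 TPM in KO females. The KO males were above all WT livers, while the KO females overlapped them. The genotype log2 difference was 0.37 (SE 0.15, limma adjusted p = 0.0539) and turned to -0.09 after rescaling (adjusted p = 0.634). It passed the threshold when WT female 2, WT female 3, KO male 1, KO female 1 or KO female 2 was left out (limma adjusted p = 0.0342 to 0.0469). In the authors' deposited table its log2 fold change was -0.30 with an FDR p-value of 0.51. *Fn1* made up 56.6 to 79.2% of the summed TPM of the 10 members in WT and 33.8 to 70.7% in KO. The other 9 members together summed to 103 to 269 TPM in WT and 211 to 620 TPM in KO, so the ranges overlapped.

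Of the elastic fibre genes, *Fbn1* encodes fibrillin-1, the main microfibril protein, and lies on chromosome 2 (125300594 to 125507993, minus strand). It was at 0.349, 0.529 and 0.344 TPM in WT males, 0.436, 0.338 and 0.651 TPM in WT females, 1.44, 0.651 and 1.94 TPM in KO males and 2.21, 1.64 and 2.21 TPM in KO females. The genotypes were separate by a very small margin, since KO male 2 and WT female 3 were nearly equal. The mean was 3.81 times higher in KO, and the log2(TPM + 1) difference was 0.87 (SE 0.15, limma adjusted p = 0.000272). After rescaling that difference was 0.64 (limma adjusted p = 0.00238).

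*Eln* encodes elastin, the core of the elastic fibre, and lies on chromosome 5 (134702593 to 134747323, minus strand). It was at 1.94, 0.739 and 0.575 TPM in WT males, 1.08, 0.880 and 1.68 TPM in WT females, 2.90, 1.75 and 2.59 TPM in KO males and 3.61, 3.04 and 4.83 TPM in KO females. Only WT male 1 reached above the lowest KO library. The mean was 2.72 times higher in KO, with a log2 difference of 0.94 (SE 0.18, limma adjusted p = 0.000677). After rescaling that difference was 0.64 (limma adjusted p = 0.0155). The log2 ratio of *Eln* to *Fbn1* differed by 0.07 between genotypes (exact permutation p = 0.705, adjusted over 5 ratios 0.705). With a pseudocount of 0.1 this difference was -0.24, so no direction can be read for that ratio.

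The 3 lysyl oxidases were low in WT liver and rose in KO liver. *Lox*, the founding member of the family, lies on chromosome 18 (52516067 to 52529867, minus strand). It was at 0.191, 0.102 and 0.160 TPM in WT males and 0.751, 0.474 and 0.223 TPM in WT females. In KO it was at 1.71, 0.605 and 1.68 TPM in males and 1.55, 2.74 and 1.78 TPM in females. Its counts were the lowest of the members, at 6 to 126 reads per library. Only KO male 2 fell below the highest WT library, WT female 1. The mean was 5.30 times higher in KO. The log2(TPM + 1) difference was 1.00 (SE 0.16, limma adjusted p = 0.000138), and with a pseudocount of 0.1 it was 2.17. After rescaling, with the pseudocount of 1, it was 0.82 (limma adjusted p = 0.000975).

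*Loxl1*, whose product is needed to renew elastic fibres, lies on chromosome 9 (58287738 to 58313186, minus strand). It was at 1.13, 1.14 and 0.766 TPM in WT males, 0.706, 0.944 and 2.65 TPM in WT females, 8.61, 3.51 and 4.84 TPM in KO males and 8.52, 8.40 and 10.3 TPM in KO females. No KO value reached down to the WT range, although WT female 3 stood apart from the other WT livers. The mean was 6.03 times higher in KO and the log2 difference was 1.89 (SE 0.22, limma adjusted p = 9.41e-06). After rescaling that difference was 1.56 (limma adjusted p = 0.000178).

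*Loxl2*, which crosslinks collagen IV and fibrillar collagen, lies on chromosome 14 (69609068 to 69695834, plus strand). It was at 0.776, 1.16 and 0.779 TPM in WT males, 0.933, 0.611 and 1.89 TPM in WT females, 6.34, 3.29 and 7.24 TPM in KO males and 9.68, 7.14 and 7.14 TPM in KO females. The genotypes did not overlap. The mean was 6.64 times higher in KO and the log2 difference was 1.92 (SE 0.19, limma adjusted p = 2.53e-06). After rescaling that difference was 1.60 (limma adjusted p = 2.28e-05). On the log2(TPM + 1) scale *Loxl1* and *Loxl2* rose more than *Lox* (log2 ratios of 0.89 and 0.92, exact permutation p = 0.015 and 0.01, adjusted over 5 ratios 0.0188 and 0.0167). After rescaling those ratios were 0.75 and 0.78 (adjusted exact permutation p = 0.0438 and 0.025). With a pseudocount of 0.1 they were 0.37 and 0.47 (adjusted exact permutation p = 0.5 for both). The *Loxl1* ratio also missed the threshold without KO female 1 (adjusted exact permutation p = 0.0563) or KO female 3 (0.0625). The plain TPM ratio of *Loxl1* to *Lox* had a median of 5.36 in WT and 5.27 in KO. A difference in response among the 3 enzymes was therefore not established.

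**Figure D3:**
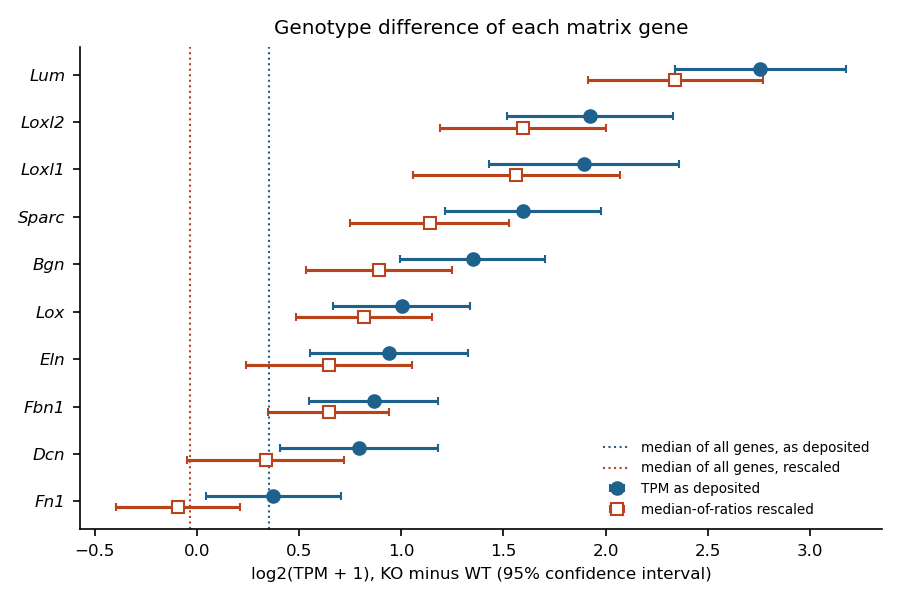
KO minus WT difference of log2(TPM + 1) with its 95% confidence interval (x axis) for each gene (y axis), on TPM as deposited (filled circles) and after median-of-ratios rescaling (open squares). The dotted lines mark the median of all tested genes on each scale; *Lum* is highest at 2.76 and the *Fn1* estimate changes sign on rescaling.

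In the authors' deposited table the log2 fold changes of the other members were 2.86 for *Lum*, 2.40 for *Lox*, 2.33 for *Loxl2*, 2.16 for *Loxl1*, 1.47 for *Fbn1*, 1.42 for *Sparc*, 1.23 for *Bgn*, 0.89 for *Eln* and 0.63 for *Dcn*. In that table *Eln* had an FDR p-value of 0.05 and *Dcn* of 0.06. *Lox*, the member with the fewest reads, ranked next to *Lum* in that table and below *Bgn* on the log2(TPM + 1) scale.

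Within males, all 10 members rose, against 43.3% of all tested genes. After rescaling 6 rose against 13.9%, and *Fn1*, *Dcn*, *Fbn1* and *Eln* were lost. The 3 KO males were above the 3 WT males for 9 members, all but *Eln*, against 50.8% of all genes. Within females, 8 members rose against 29.1% of all genes, and the same count was found after rescaling against 15.2%. *Fn1* and *Dcn* were the members that did not pass in females, and they were also those whose female values overlapped between genotypes. The remaining 8 members were separate between KO and WT females, as were 43.5% of all genes. The male calls of *Fn1*, *Fbn1* and *Eln* each depended on single libraries. That of *Fn1* was lost without WT male 1 (limma adjusted p = 0.051) or KO male 3 (0.0655), and that of *Fbn1* without KO male 3 (0.0622). That of *Eln* was lost without WT male 2 (0.0921), WT male 3 (0.0973), KO male 1 (0.084) or KO male 3 (0.0766). In females *Dcn* passed without WT female 3 (0.0354) or KO female 2 (0.0287). The *Fn1* difference was 0.65 in males (limma adjusted p = 0.0158) and 0.09 in females (adjusted p = 0.742).

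Whether the sexes differed in response was tested for each member as the interaction of genotype and sex. None of the 10 members passed, and none had an unadjusted p under 0.05 in limma. Over all tested genes 0.912% passed. For *Fn1* the male difference minus the female difference was 0.56 (95% confidence interval -0.03 to 1.15, limma adjusted p = 0.592). For *Lum* it was -0.21 (-1.06 to 0.65). These intervals are wide, and the males and females were not shown to respond alike.

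**Figure D4:**
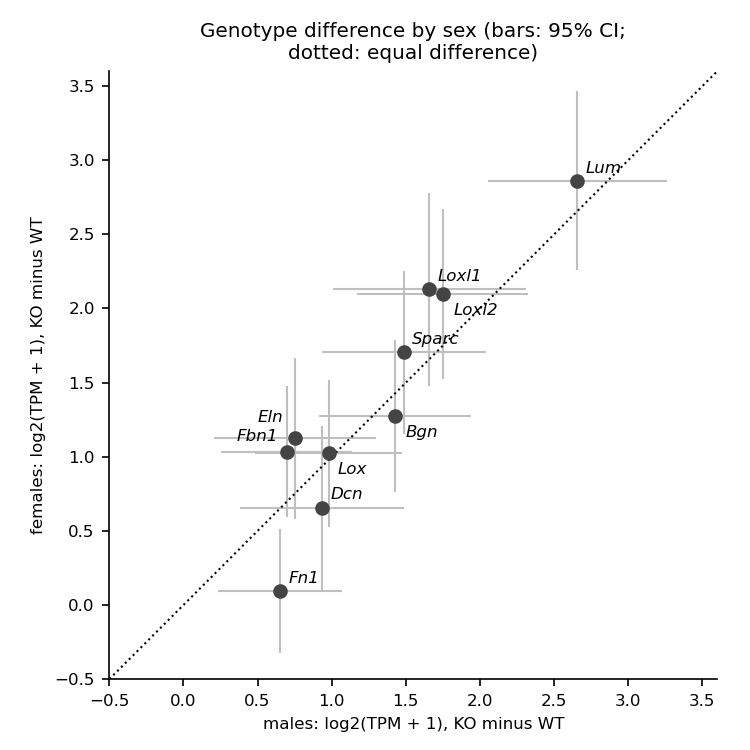
KO minus WT difference of log2(TPM + 1) in males (x axis) and in females (y axis) for the 10 genes, with 95% confidence intervals. The dotted line marks equal differences; *Fn1* lies farthest below it, at 0.65 in males and 0.09 in females.

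The levels of the sexes were compared within each genotype. The female mean was above the male mean for 9 members in WT and for 9 in KO, with *Fn1* the exception in both. Over all tested genes the female mean was the higher for 70.8% in WT and 50.2% in KO. In WT all 3 females were above all 3 males for *Sparc*, *Lum*, *Dcn*, *Bgn* and *Lox*, as for 27.5% of all tested genes. *Dcn* was 2.05 times and *Bgn* 2.07 times higher in WT females than in WT males. These were the 2 members that passed the test, with male minus female log2 differences of -1.02 (limma adjusted p = 0.037) and -1.0 (adjusted p = 0.0284). Over all tested genes 4.6% were lower in WT males. Neither call held after rescaling (limma adjusted p = 0.0962 for *Dcn* and 0.084 for *Bgn*) or without WT female 3 (adjusted p = 0.12 and 0.0966), WT male 2 (0.15 and 0.0955) or WT female 1 (0.0936 and 0.0802). The *Dcn* call was also lost without WT female 2 (0.0565), KO male 3 (0.0501) or KO female 3 (0.0546), and the *Bgn* call without WT male 1 (0.0701). Without both animals with low numbers the log2 differences were -0.83 for *Dcn* and -0.83 for *Bgn*, and neither passed. In KO no member passed, while 0.0814% of all genes did, and 6 members had an unadjusted limma p under 0.05, as did 5.33% of all genes. In KO all females were above all males for *Bgn* and *Eln*, as for 5.09% of all genes.

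Within a genotype, the members often had their highest and lowest levels in the same libraries. KO male 2 was the lowest KO library for 9 of the 10 members, and WT female 3 was the highest WT library for 7. KO female 1 was the highest KO library for 5 members and KO female 3 for 3. After group means were taken off, Pearson's r over the 12 libraries had a median of 0.64 among the 36 pairs of members that leave out *Fn1*. It ranged from -0.19 to 0.96, with *Lum* and *Dcn* as the closest pair. *Fn1* had an r of -0.26 to 0.43 with the others. These are descriptions, since the values of a library share its scaling and its mix of cells. No value over all tested genes stands beside them, so the pattern was not shown to be particular to the members. The markers of stellate cells summed to 39.5 TPM in KO male 2 and to 118 TPM in KO female 1, the lowest and highest KO libraries. In those libraries endothelial markers summed to 27.3 and 107 TPM and macrophage markers to 276 and 561 TPM. Not all lists did so. Portal fibroblast markers summed to 147 TPM in KO male 2 and were lowest in KO male 1, at 112 TPM. Mesothelial markers were lowest in KO female 1, at 3.61 TPM, and cholangiocyte markers in KO female 2, at 252 TPM. The part of these cell types in the library pattern of the members was not tested.

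Other matrix genes were read from lists of the same pathways. Their counts stand against 50.1% of all tested genes that rose and 4.82% that fell, and against 20.9% and 18.7% after rescaling. Among the tested genes of these lists, *Tnc*, *Matn2*, *Omd*, *Fbln1*, *Mfap2*, *Ltbp2* and *Plod2* reached the filter of 0.5 TPM only through the KO libraries, and of them all but *Omd* and *Fbln1* are counted among those that rose. Of 16 other matrix glycoproteins 14 were tested, 13 rose and 1 fell, and after rescaling 11 rose and 1 fell. *Nid1*, a basement membrane linker, went from 3.58 ± 0.943 to 64.0 ± 22.6 TPM (SD, n = 6 each). *Spon2* went from 4.47 ± 3.39 to 55.5 ± 10.4 TPM and *Smoc2*, a relative of SPARC, from 3.49 ± 1.80 to 42.8 ± 9.85 TPM. *Ecm1* was the gene that fell, from 83.3 ± 42.4 to 40.7 ± 15.0 TPM (limma adjusted p = 0.0014). The list median was 1.27, near that of the members.

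Of 12 other proteoglycans 9 were tested, 5 rose and none fell, with a median of 0.56. After rescaling 2 rose and 2 fell. These shares are near those of all tested genes. The largest rises were of *Srgn*, *Prelp* and *Fmod*, at log2 differences of 1.33, 0.97 and 0.75, of which *Fmod* did not pass after rescaling (limma adjusted p = 0.0806). *Lum*, *Bgn* and *Dcn* had log2 differences of 2.76, 1.35 and 0.80 on the same scale, of which *Dcn* did not pass after rescaling.

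Among 14 genes of elastic fibre assembly 12 were tested, 10 rose and 1 fell, and after rescaling 8 rose and 1 fell. *Emilin1* rose from 7.36 ± 1.41 to 28.1 ± 8.10 TPM, *Ltbp2* from 0.192 ± 0.0571 to 1.86 ± 0.674 TPM, and *Fbln5*, which links tropoelastin to microfibrils, from 1.13 ± 0.760 to 3.80 ± 1.25 TPM. *Ltbp4*, a latent TGF-beta binding protein, fell from 12.3 ± 4.13 to 8.87 ± 3.37 TPM (log2 -0.44, limma adjusted p = 0.0303).

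For collagen crosslinking and modification 15 of 16 genes were tested, 11 rose and none fell, and after rescaling 8 rose and 1 fell. *Tgm2*, a transglutaminase that crosslinks proteins by another chemistry than lysyl oxidases, went from 65.5 ± 16.1 to 495 ± 200 TPM. It was thus far above all 3 lysyl oxidases. *Serpinh1*, the collagen chaperone, rose from 9.45 ± 3.67 to 30.2 ± 9.48 TPM, and *Adamts2*, which trims procollagen, from 0.924 ± 0.482 to 4.54 ± 1.14 TPM. All 5 collagen substrates rose, with a median log2 difference of 2.86. *Col1a1* went from 2.90 ± 1.08 to 62.0 ± 17.2 TPM, *Col1a2* from 4.56 ± 1.58 to 48.8 ± 12.1 TPM and *Col3a1* from 8.49 ± 3.20 to 67.4 ± 17.8 TPM.

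Markers of the cell types that a whole liver holds were read beside the members, against the same shares of all tested genes. The 6 macrophage markers all rose on both scalings, and their summed level was 59.3 to 190 TPM in WT and 276 to 561 TPM in KO. The largest log2 differences were of *Trem2* (3.30), *Cd68* (2.48) and *Cd5l* (2.33). The 4 tested portal fibroblast markers of 7 rose, 3 of them also after rescaling, while *Thy1* did not pass there (limma adjusted p = 0.295). The list summed to 23.0 to 84.7 TPM in WT and 112 to 158 TPM in KO. Most of that sum was *Gas6*, at 17.7 to 75.7 TPM in WT and 87.7 to 121 TPM in KO. *Entpd2*, *Gas6* and *Cd34* had log2 differences of 2.39, 1.58 and 1.11. Of the 10 stellate cell markers 4 rose and none fell, with summed levels of 40.3 to 97.3 TPM in WT and 39.5 to 118 TPM in KO. After rescaling 2 of the 10 rose and 3 fell. The share that rose was below that of all genes as deposited and near it after rescaling. *Lrat*, which stores vitamin A in stellate cells, was at 3.20 to 9.25 TPM in WT and 1.64 to 5.79 TPM in KO. *Pdgfrb*, a receptor of stellate cells and other mesenchyme, rose from 2.63 ± 0.890 to 12.2 ± 3.78 TPM, and *Hand2* and *Hgf* rose by log2 differences of 0.93 and 0.88, of which *Hand2* did not pass after rescaling (limma adjusted p = 0.0581).

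Of the 6 markers of activated myofibroblasts and smooth muscle 4 were tested and 2 rose, *Pdgfra* and *Tagln*, of which *Tagln* did not pass after rescaling (limma adjusted p = 0.12). The list summed to 7.61 to 14.6 TPM in WT and 11.7 to 46.0 TPM in KO. *Acta2*, the classical marker of this state, was at 0.988 to 3.70 TPM in WT and 1.65 to 11.1 TPM in KO. Of 5 mesothelial markers *Wt1* and *Msln* rose (*Wt1* alone after rescaling) and none fell, at 2.0 to 9.56 TPM summed in WT and 3.61 to 15.1 TPM in KO. *Wt1* and *Upk1b* reached the filter only through the KO libraries. Of 6 endothelial markers *Cdh5* rose and *Kdr* fell (0 rose and 2 fell after rescaling), at 42.4 to 66.7 TPM summed in WT and 27.3 to 107 TPM in KO.

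Among 6 cholangiocyte markers 4 were tested, *Spp1* and *Sox9* rose, and *Epcam* fell. The list summed to 27.7 to 58.5 TPM in WT and 252 to 713 TPM in KO, mostly through *Spp1*. *Krt19* was at 0.738 to 2.26 TPM in WT and 0.0552 to 2.17 TPM in KO. None of 6 hepatocyte markers rose, and *Ttr* and *Serpina1a* fell (3 fell after rescaling), at 80335 to 106951 TPM summed in WT and 60879 to 86276 TPM in KO. No marker was at 0 in every library, but *Gli1*, *Cftr*, *Clec3b*, *Pi16*, *Cnn1*, *Actg2* and *Msln* were at 0 in some. The part of these cell types in the changes of the 10 members was not tested.

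**Figure D5:**
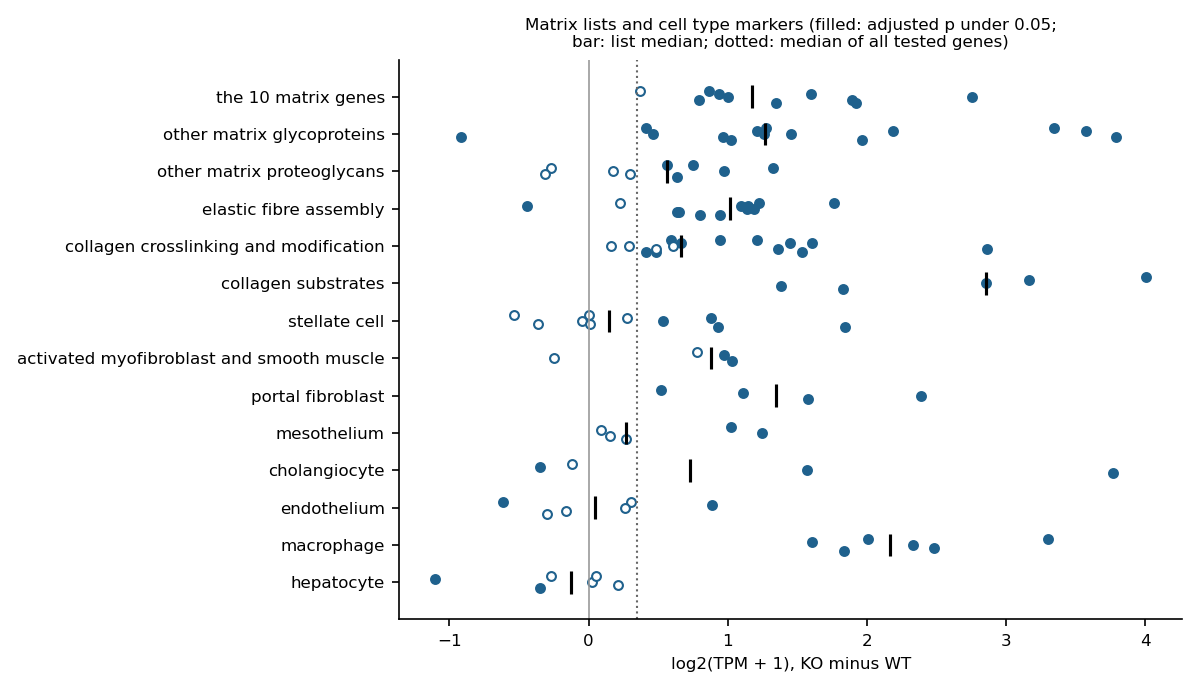
KO minus WT difference of log2(TPM + 1) (x axis) for each tested gene of the 10 members, of 5 other matrix lists and of 8 cell type marker lists (y axis). Filled points have a limma adjusted p under 0.05, bars are list medians and the dotted line is the median of all tested genes. The collagen substrates and the macrophage markers have medians of 2.86 and 2.17, above that of the members at 1.18.

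The genes most like the members were found by Pearson's r with the mean standardised level of the members over the 12 libraries. They were *Pdgfra* (0.991), *Pdgfrb* (0.989), *Fblim1* (0.989), *Smtn* (0.989) and *Col6a1* (0.988). After group means were taken off they were *Cavin2* (0.949), *Pdgfra* (0.934), *Timp2* (0.928), *Sod3* (0.926) and *Col6a1* (0.919). *Pdgfra* and *Col6a1* were in both sets. *Cavin2*, a gene of caveolae, followed the members within groups although its log2 difference between genotypes was 0.03 (limma adjusted p = 0.89).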

How the data were processed

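RNA from whole liver of 12 mice was sequenced. Per the labels' protocols, RNA was extracted with Trizol, cleaned on columns with DNase treatment and made into Illumina libraries. The authors deposited 1 table with a TPM value per gene and mouse, per the file headers. The submitters' processing notes name the build GRCm 38 and edgeR, without saying where edgeR was used. The aligner, the counter and the use of strand are not given in the sources used here. The authors' deposited log2 fold change and FDR p-value were read for comparison only. Each TPM column matched 1 sample, and no TPM column was left over. Groups come from the titles. The labels name separate animals, and replicate numbers pair none of them.

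Values entered the tests on the log2(TPM + 1) scale. Only the 12278 genes whose mean reached 0.5 TPM were tested. The tool was limma 3.58.1 under R 4.3.3, with an intensity trend in eBayes. p-values were two-sided, with Benjamini-Hochberg adjustment over all tested genes and a threshold of 0.05. The genotype comparison had sex as a covariate, and the others came from 1 model of 4 group means. Ratios were tested by exact permutation over 400 arrangements, adjusted over 5. The procedure was tested on simulated data. In the rescaled alternative each library was divided by its median ratio to the geometric mean of all libraries. Other alternatives were a pseudocount of 0.1 in place of 1, a filter at 1 TPM, no filter, no trend, rescaling without the 20 most abundant genes, a covariate for the low animal numbers, and leaving out each library. Leaving out both animals with low numbers was chosen after seeing the data.

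The depth of a library was estimated from the smallest steps in the TPM values of a gene where these were found. For the other genes the annotated gene length was used. For the members the steps gave whole reads. Counting error is relatively larger for members with fewer reads. Positions come from GENCODE mouse release 21. There, exons of *Eln*, *Fbn1*, *Fn1*, *Lox* and *Loxl2* overlap genes on the opposite strand, whose reads cannot be told apart without strand. *Lox* was left out of the promoter search. Of the other members 3 matched a RefSeq promoter entry, and 2 of those windows overlapped annotated exons and were not printed. The GC box was searched after the other 5 motifs had given no match. From the other lists, the text names up to 3 genes past the threshold with the largest difference, each gene that fell, and a few well-known markers chosen after their values were seen (*Lrat*, *Acta2*, *Krt19*, *Alb*, those at 0 in some libraries, and those that reached the filter through KO alone). The members, lists and tests were chosen with earlier results of these data known.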

Additional observations from a re-analysis of the deposited data

Results flagged for a closer look

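*Loxl1* in WT liver had 1 value apart from the others: WT female 3 was at 2.65 TPM, while the other WT livers were at 0.706 to 1.14 TPM. On the log2(TPM + 1) scale its gap to the next library was 0.704 of the whole range, above the critical value of 0.625 for 6 samples. Of 20 sets of values checked, this was the 1 that stood out, and chance alone marks about 1 set in 20. WT female 3 was also the highest WT library for 7 of the 10 members, and it was 1 of the 2 mice with a low animal number. Whether that number goes with its level was not tested.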

How the results depend on the processing

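The 9 members that rose in the genotype comparison passed the limma threshold without any single library, and all but *Dcn* did so after rescaling. A filter at 1 TPM left *Lox* untested, which gave 8 members in the genotype comparison, 9 in males and 7 in females. A covariate for the low animal numbers gave 9 members and 6648 genes in the genotype comparison. The count of members that rose in males was 6 after median-of-ratios rescaling, and of all genes 2959 passed there. Rescaled without the 20 most abundant genes, the members passing were 9 in the genotype comparison, 10 in males and 8 in females. *Fn1* was then at 0.30 in the genotype comparison. On median-of-ratios rescaling *Fn1* turned to -0.092 in the genotype comparison and to -0.256 in females. In females it ran from -0.0207 to 0.173 with 1 library left out, and with both animals with low numbers left out its genotype difference was 0.48. For sex in WT, 0 members passed after median-of-ratios rescaling, without a filter, or without both animals with low numbers, and 0 to 2 with 1 library left out. Rescaled without the 20 most abundant genes, 2 passed. The genes passing for sex in WT were 458 without both animals with low numbers and 290 to 1696 with 1 library left out. Those for sex in KO were 6 to 10, and those for the interaction 75 to 176, highest without WT male 3. The *Eln* to *Fbn1* ratio was -0.24 at a pseudocount of 0.1 and -0.00892 to 0.225 with 1 library left out. At that pseudocount the *Loxl1* and *Loxl2* to *Lox* ratios were 0.37 and 0.47, and with 1 library left out they were 0.72 to 1.13 and 0.80 to 1.11. The causes of these changes were not tested, and leaving out a library also lowers the number of samples. No paired analysis was possible because the replicate numbers follow the order of deposition and pair no animals. The fewest reads were behind *Lox*, at 6 to 126 per library.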
